A study of Rattus norvegicus with 6 samples.

Results

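The microRNAs miR-219a and miR-338, known from oligodendrocyte maturation, were followed arm by arm in small RNA sequencing of rat cortex beside an infarct. The members were the rows of the deposited count table whose names start with rno-miR-219a- or rno-miR-338-, which were 5 of the 493 mature miRNAs listed: rno-miR-219a-2-3p, rno-miR-338-5p, rno-miR-338-3p, rno-miR-219a-1-3p and rno-miR-219a-5p. Tissue came from 3 male Sprague-Dawley rats of the MCAO group and 3 of the MCAO + rTMS group (labelled MCAO-rTMS). All 6 rats had the right middle cerebral artery occluded for 90 min and then reperfused, and their peri-infarct cortex was taken. The MCAO group had no stimulation, and its tissue was dated to day 7 after reperfusion, or after surgery in replicate 3. The MCAO + rTMS group received 10 Hz repetitive transcranial magnetic stimulation for 10 min a day on 7 consecutive days, started a day after reperfusion according to the methods. The coil was circular and stood over the right primary motor cortex. The labels give no harvest day for these rats, while a supplement of the study dates the comparison of both groups to day 7 after modelling. No sham-stimulated library was analysed here, so handling under the coil and stimulation cannot be told apart. No unoperated or sham-operated library was analysed here.

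Oligodendrocytes make the myelin of the central nervous system and arise from dividing precursors that carry the receptor PDGFRα. miR-219 and miR-338 rise as these precursors stop dividing, and both are known to repress genes that hold the precursor state, among them Pdgfra, Sox6 and Hes5. A miRNA gene is transcribed as a hairpin, from which Dicer cuts a duplex. Its strands are the 5p and the 3p arm, and usually one of them is kept in the Argonaute protein as the guide while the other is degraded. The arms most often named as the guides of these hairpins in the myelination literature are miR-219a-5p and miR-338-3p. An arm finds its targets through its seed, bases 2 to 8, so that 2 arms of one hairpin address different mRNAs.

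The 5 mature sequences are shown because the comparison turns on which arm was read, with the seed in capitals, 5′ to 3′, from RefSeq (assembly GRCr8). miR-3065-5p is added since its gene lies on the opposite strand of the miR-338 gene.
rno-miR-219a-2-3p: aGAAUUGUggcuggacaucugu
rno-miR-338-5p: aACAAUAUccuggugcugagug
rno-miR-338-3p: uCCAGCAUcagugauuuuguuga
rno-miR-219a-1-3p: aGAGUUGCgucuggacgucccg
rno-miR-219a-5p: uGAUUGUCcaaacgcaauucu
rno-miR-3065-5p: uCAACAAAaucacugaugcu
No 2 members had the same seed, and none of their 5 seeds occurred in another rat mature miRNA of the RefSeq table. The 3p arms of the miR-219a hairpins held the same base at 15 of 22 positions. Each mature miRNA here is 20 to 23 bases long, so counts were not divided by length. Without molecular identifiers they are not numbers of molecules, and ratios between arms are ratios of reads.

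The hairpins are given with the mature arms in capitals, 5p first, to show how each pair of arms is cut from one RNA.
Mir338: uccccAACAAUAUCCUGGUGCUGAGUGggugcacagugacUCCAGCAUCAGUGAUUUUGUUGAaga
Mir219-2: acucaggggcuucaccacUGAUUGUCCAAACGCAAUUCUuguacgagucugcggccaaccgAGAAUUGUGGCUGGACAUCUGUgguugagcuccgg
Mir219a1: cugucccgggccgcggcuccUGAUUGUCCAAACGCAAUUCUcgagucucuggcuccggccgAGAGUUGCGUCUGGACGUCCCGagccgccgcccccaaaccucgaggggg
The sequence of miR-219a-5p occurs once in each miR-219a hairpin, so that its reads cannot be assigned to a gene, while each 3p arm marks its own hairpin. In the GRCr8 annotation, Mir338 is on chromosome 10 within the span of Aatk, a kinase gene, Mir219-2 on chromosome 3 within the span of Cercam, and Mir219a1 on chromosome 20 with no other gene over it. Positions are not printed, as the deposited counts were made on the older build rn6.

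Libraries held between 10492610 and 15411620 counted reads. The table lists 286 of its 2958 counts as 0 and none from 1 to 9, so a listed 0 was read as anything up to 9 reads. Levels are in CPM, reads divided by the library total and multiplied by 1000000, where the total was first adjusted by TMM, a method of edgeR that corrects totals for a few very abundant miRNAs. The TMM factors lay between 1.16 and 1.39 in the MCAO group and between 0.695 and 0.864 in the MCAO + rTMS group, and levels relative to the plain library totals are therefore given as well. Brain miRNAs were abundant in every library, among them miR-128-3p, with 2745853 to 4684549 reads, and miR-9a-5p, with 1560751 to 2784063 reads.

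In the listed counts the miR-219a-2 and miR-338 hairpins, the 2 with abundant reads, were represented almost wholly by the arms less often called the guides. For miR-219a-2 this depends on how reads of the shared 5p sequence were counted, which is not given. Read counts fell in the same order in all 6 libraries, from miR-219a-2-3p over miR-338-5p, miR-338-3p and miR-219a-1-3p to miR-219a-5p. Among the reads of the 5 members, miR-219a-2-3p and miR-338-5p together took 97.4% ± 0.453 without stimulation and 99.0% ± 0.458 with it (mean ± SD over 3 libraries each). The neighbours in this order did not overlap in any group, except that miR-219a-5p, near or below the lowest count listed, has no measured level in 4 libraries. All 5 members together made up 0.120% ± 0.00879 of the counted reads without stimulation and 0.171% ± 0.0715 with it (mean ± SD over 3 libraries each).

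**Figure D1:**
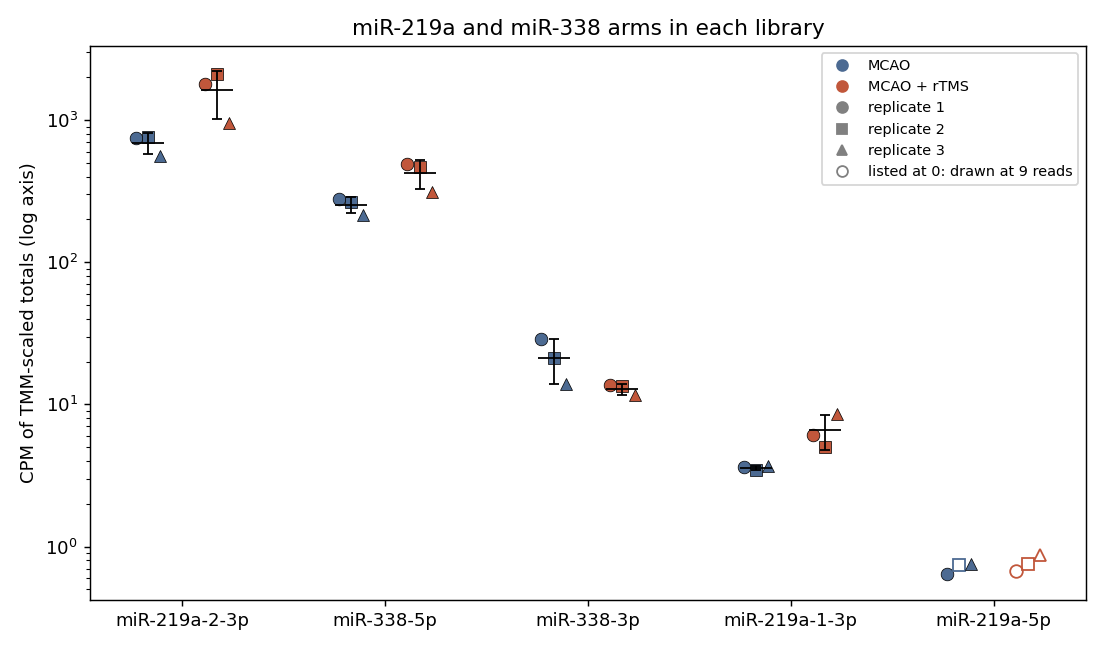
Level of each member in each library, in CPM of TMM-scaled totals on a log axis, with 1 point for a library, its shape for the replicate number, and black marks for the mean ± SD (n = 3). Open points are libraries listed at 0, drawn at 9 reads. The members span from 2092 CPM for miR-219a-2-3p to under 1 CPM for miR-219a-5p, and the third MCAO + rTMS library is the lowest of its group for miR-219a-2-3p and miR-338-5p.

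miR-219a-2-3p, the 3p arm of the second miR-219a hairpin, had 11843, 9266 and 8898 reads in the MCAO libraries, given here and later in the order of their replicate numbers, and 24019, 24819 and 9787 reads in the MCAO + rTMS libraries. The first 2 stimulated libraries thus stood well above all others, and the third lay within the range of the MCAO counts. With TMM scaling the levels were 754, 764 and 557 CPM against 1807, 2092 and 951 CPM, and the groups did not overlap. The means were 692 ± 117 and 1617 ± 594 CPM (SD, n = 3 each), so that miR-219a-2-3p rose by 1.22 on the log2 scale (standard error 0.31). The Benjamini-Hochberg adjusted p was 0.013 in the quasi-likelihood test of edgeR, which gave all adjusted p-values of levels that follow. Relative to library totals the levels were 903, 883 and 777 CPM against 1558, 1809 and 662 CPM, with the third MCAO + rTMS library below every MCAO library. On that scale the log2 fold change was 0.65 (standard error 0.35) and did not pass the edgeR test (adjusted p = 0.148). The failure under library totals depended on that library, the lowest stimulated one, whose removal had to raise the change. Without it the log2 fold change was 1.52 with TMM (adjusted p = 0.00082) and 0.98 with library totals (adjusted p = 0.0025) in edgeR. Leaving out libraries under library totals was chosen after seeing the data, unlike library totals themselves. As removal of the lowest stimulated library had to raise the change, neither value is added support for a rise. With TMM and without MCAO + rTMS replicate 2 instead, the log2 fold change of 1.03 no longer passed (adjusted p = 0.053).

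miR-338-5p had 4368, 3210 and 3451 reads in the MCAO libraries and 6537, 5571 and 3211 reads in the MCAO + rTMS libraries. As for miR-219a-2-3p, the first 2 stimulated libraries were high and the third was close to the MCAO counts. Its levels with TMM were 278, 265 and 216 CPM against 492, 470 and 312 CPM, without overlap between the groups. The mean level rose from 253 ± 32.6 to 424 ± 98.0 CPM (SD, n = 3 each), which was 0.75 on the log2 scale with a standard error of 0.23 (edgeR, adjusted p = 0.028). With library totals the levels overlapped, at 301 to 333 CPM against 217 to 424 CPM, and the log2 fold change of 0.16 had a standard error of 0.28 (edgeR, adjusted p = 0.647). The TMM call was lost when any library other than MCAO + rTMS replicate 3 was left out, with adjusted p between 0.058 and 0.098 in edgeR.

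miR-338-3p, the arm of the same hairpin that is usually described in oligodendrocyte maturation, went the other way. It had 454, 257 and 222 reads in the MCAO libraries and 181, 159 and 119 reads in the MCAO + rTMS libraries, so that every stimulated library had fewer reads than every MCAO library, in spite of larger totals. With TMM the levels were 28.9, 21.2 and 13.9 CPM against 13.6, 13.4 and 11.6 CPM, and the groups were barely separate. The log2 fold change of -0.73 (standard error 0.28) did not pass the edgeR test with TMM (adjusted p = 0.060). With library totals the levels were 34.6, 24.5 and 19.4 CPM against 11.7, 11.6 and 8.04 CPM. On that scale miR-338-3p fell, at -1.32 in log2 with a standard error of 0.29 (edgeR, adjusted p = 0.0066).

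miR-219a-1-3p, the 3p arm of the first miR-219a hairpin, was a rare species at 57, 42 and 59 reads in the MCAO libraries and 81, 60 and 88 reads in the MCAO + rTMS libraries. Here the third stimulated library was the highest and not the lowest. With TMM the levels were 3.63, 3.47 and 3.70 CPM against 6.09, 5.06 and 8.55 CPM, without overlap, and miR-219a-1-3p rose by 0.86 in log2 with a standard error of 0.28 (edgeR, adjusted p = 0.032). With library totals the groups overlapped, as the highest MCAO level of 5.15 CPM lay above the lowest MCAO + rTMS level of 4.37 CPM, and the log2 fold change of 0.21 had a standard error of 0.28 (edgeR, adjusted p = 0.548). The TMM call was kept without MCAO + rTMS replicate 2 and lost without any other library, with adjusted p between 0.057 and 0.087 in edgeR.

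miR-219a-5p, the arm that both miR-219a hairpins share, had 10 reads in MCAO replicate 1 and 12 in MCAO replicate 3, and was listed at 0 in MCAO replicate 2 and in all 3 MCAO + rTMS libraries. Exact 95% Poisson intervals for these counts, which cover counting error only, were 4.80 to 18.4 and 6.20 to 21.0 reads. With all 6 libraries it did not pass edgeR's filter on low counts and had no test. It entered the fit with no filter and, with TMM, when MCAO replicate 2 or any MCAO + rTMS library was left out. In each of these fits it was kept through the reads of the MCAO group alone, so no p is given. Leaving out MCAO replicate 2, the MCAO library at 0, gave a call of lower. With no filter, and without each MCAO + rTMS library, miR-219a-5p was not called. Neither outcome carries weight. These fits take a listed 0 as no reads, so no fold change is given, and a difference between 12 reads and an unlisted count of up to 9 was not detectable at this depth.

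Under TMM scaling 3 of the 4 tested members were thus called higher and none lower by edgeR at an adjusted p under 0.05. Of the 452 tested miRNAs 27.2% were called higher, 28.1% lower and 55.3% in either direction. Groups did not overlap for all 4 tested members, and for 66.8% of the tested miRNAs. Under library totals none of the 4 was called higher and 1 lower, against 12.2% of all tested miRNAs higher, 46.0% lower and 58.2% in either direction. Groups then did not overlap for 1 of the 4 and for 69.9% of the tested miRNAs. The scalings moved all miRNAs together: the median log2 fold change of the 452 was -0.21 with TMM and -0.80 with library totals. A change of scaling shifts all miRNAs by nearly the same amount, so distances from the median are nearly free of it by construction. miR-219a-2-3p was 1.43 above the median with TMM and 1.45 with library totals on the log2 scale, miR-338-5p 0.95 and 0.96, miR-219a-1-3p 1.07 and 1.01, while miR-338-3p was at -0.52 with both.

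**Figure D2:**
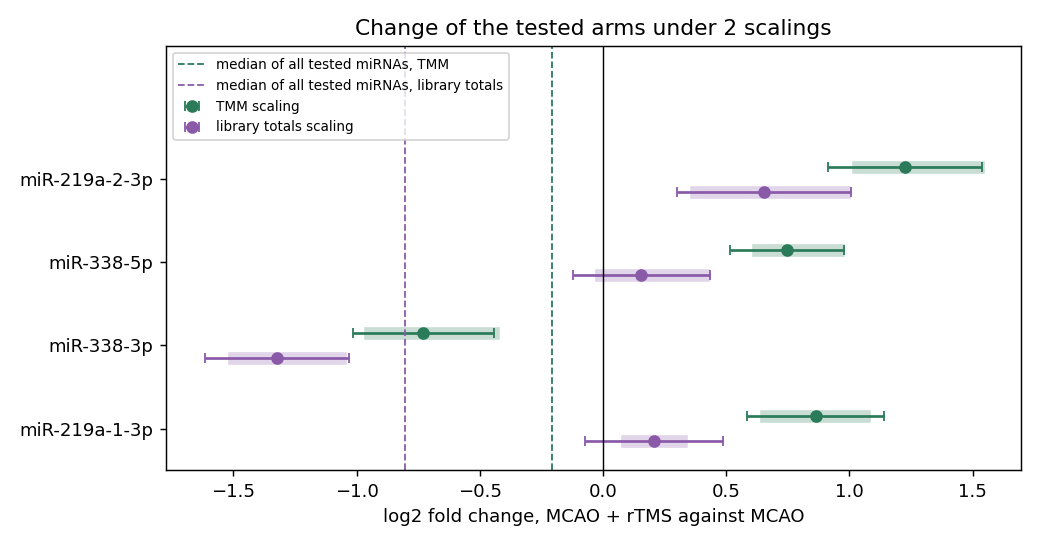
Log2 fold change of the 4 tested members with stimulation against without, as points with bars for the standard error, under TMM scaling and library totals. Pale bands give the range over the 6 fits that each left out 1 library, and dashed lines the median of the 452 tested miRNAs. Both sets of points shift by nearly the same amount as the medians, from -0.21 to -0.80, so that only miR-338-3p lies below its median.

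Ranks within a library need no scaling between libraries, but they depend on how all other miRNAs move, as the distances from the median do. miR-219a-2-3p was ranked 58, 61 and 73 of 493 by reads in the MCAO libraries and 47, 43 and 71 in the MCAO + rTMS libraries. For miR-338-5p the ranks were 105, 111 and 115 against 85, 88 and 109. The ranks of both therefore overlapped between the groups through the third stimulated library alone. miR-338-3p was at rank 244, 260 and 288 against 285, 282 and 288, and overlapped as well. miR-219a-1-3p moved up from 372, 370 and 378 to 340, 344 and 307, without overlap.

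The balance of the miR-338 arms shifted toward 5p, and this ratio is free of any scaling since both arms are read in the same library. There were 9.62, 12.5 and 15.5 reads of miR-338-5p for each read of miR-338-3p without stimulation, and 36.1, 35.0 and 27.0 with it. Every stimulated library was above every MCAO library. The mean log2 ratio went from 3.62 ± 0.346 to 5.02 ± 0.232 (SD, n = 3 each), a change of 1.40 (standard error 0.28) or 2.63-fold, with an adjusted p of 0.0060 from limma fitted over the 167 hairpins with both arms tested. It kept an adjusted p under 0.05 in limma in all 10 alternative fits, with a change between 1.22 and 1.56 when 1 library was left out. A shift of this kind was common among the hairpins: 49.1% of the 167 were called in either direction and 26.3% toward 5p, 58.1% had groups that did not overlap, and 83 hairpins changed by more than miR-338 in size. The median change over the hairpins was 0.022, so arms did not drift to one side as a whole.

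**Figure D3:**
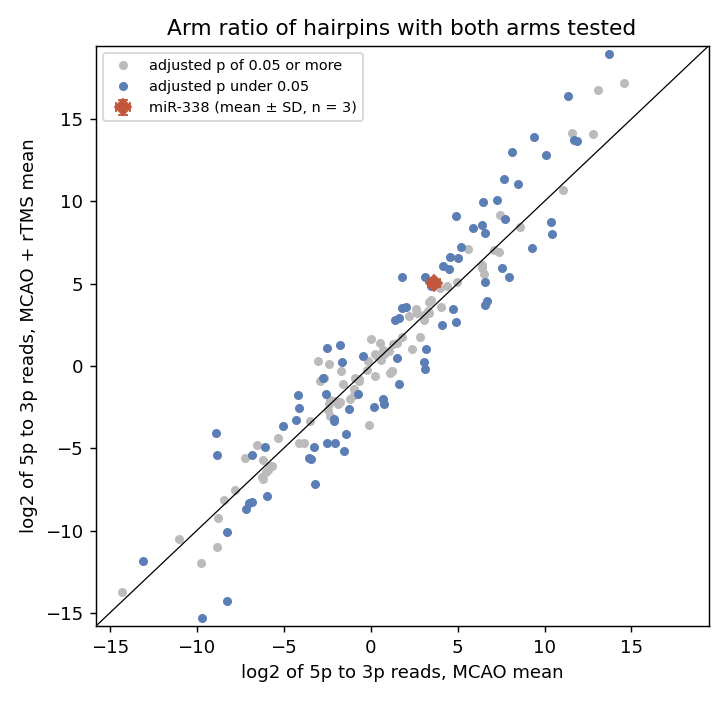
Mean log2 ratio of 5p to 3p reads for 167 hairpins in the MCAO group (x axis) and the MCAO + rTMS group (y axis), with hairpins at an adjusted p under 0.05 in limma in blue and miR-338 as a diamond with SD bars. The line marks equal ratios. miR-338 lies above it, at 3.62 and 5.02, among many hairpins that lie off the line on both sides.

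For the second miR-219a hairpin the excess lay on 3p and was far greater. miR-219a-2-3p had 1184 and 741 times the reads of miR-219a-5p in MCAO replicates 1 and 3, the libraries where the 5p arm was listed. Taking each listed 0 as 9 reads, the ratio was at least 1030 in MCAO replicate 2 and at least 2669, 2758 and 1087 in the MCAO + rTMS libraries. The 5p sequence lies in both hairpins, and how reads with several matches were counted is not given. These ratios may therefore understate or overstate the excess within the second hairpin. Even the rare miR-219a-1-3p had 5.70 and 4.92 times the reads of miR-219a-5p in MCAO replicates 1 and 3. No change of these ratios between the groups could be tested.

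The first base also set the arms apart. Both abundant members, miR-219a-2-3p and miR-338-5p, begin with A, while the less abundant partners miR-219a-5p and miR-338-3p begin with U, the base that Argonaute proteins are known to favour at this place. Of 150 tested hairpins with both arm sequences in RefSeq, 82 had U first on 1 arm only, and in 63 of these, or 76.8%, the arm with U had more reads. miR-338 was among the others.

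Since miR-219a and miR-338 are taken as markers of one cell type, their reads were compared with each other within each library. The ratio of miR-219a-2-3p to miR-338-5p was 2.71, 2.89 and 2.58 in the MCAO libraries and 3.67, 4.46 and 3.05 in the MCAO + rTMS libraries, and every stimulated library was higher. The ratio of miR-219a-2-3p to miR-338-3p was 26.1, 36.1 and 40.1 against 133, 156 and 82.2. That of miR-219a-2-3p to miR-219a-1-3p, the 3p arms of the 2 miR-219a hairpins, was 208, 221 and 151 against 297, 414 and 111, and overlapped. Of the 5 ratios compared between hairpins, 3 reached p = 0.1 in the two-sided exact permutation test (adjusted p = 0.167), which is the smallest p that 3 against 3 rats allow, so none could pass 0.05. These were the ratios of miR-219a-2-3p to each arm of miR-338 and of miR-219a-1-3p to miR-338-3p, with log2 changes of 0.44, 1.83 and 1.51. The other 2 were miR-219a-1-3p to miR-338-5p (log2 change 0.11, exact permutation p = 1) and miR-219a-2-3p to miR-219a-1-3p (0.33, exact permutation p = 0.6).

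**Figure D4:**
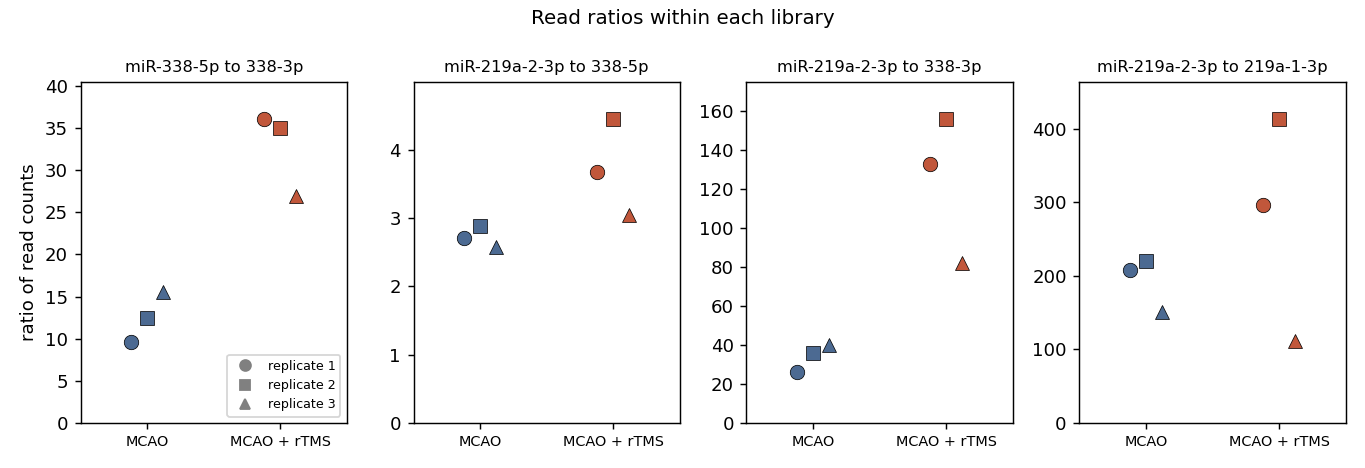
Ratio of read counts between members within each library, 1 panel for a ratio, with linear axes from 0, 1 point for a library and its shape for the replicate number. The 3 MCAO + rTMS libraries lie above the 3 MCAO libraries in the first 3 panels, and overlap with them for miR-219a-2-3p to miR-219a-1-3p, where the third library is lowest at 111.

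miR-3065-5p is cut from the opposite strand of the miR-338 gene, and the whole miR-338 hairpin of 66 bases lies within the miR-3065 hairpin read on the other strand. All 20 bases of miR-3065-5p are the reverse complement of a stretch of miR-338-3p. It had 23, 16 and 31 reads in the MCAO libraries and was listed at 0 in all 3 MCAO + rTMS libraries. Its level was 1.58 ± 0.325 CPM (SD, n = 3) with TMM in the MCAO group and, taking each listed 0 as 9 reads, at least 2.05-fold lower in the MCAO + rTMS group. It passed the filter on low counts through the MCAO group alone, and no p is given, since the fit takes each listed 0 as no reads. Both miRNAs from this pair of complementary stretches were thus lower in read count in every stimulated library. The opposite strand of the second miR-219a gene also carries a miRNA gene, but its mature miR-219b was not among the rows listed, nor was miR-3065-3p.

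Among the 286 miRNAs with a mean count above 200, those with the most similar course over the 6 libraries were sought by the root mean square distance of log2 CPM, each miRNA centred on its own mean. For miR-219a-2-3p the nearest were miR-1843a-3p, miR-1839-5p and miR-322-3p, at distances of 0.19, 0.20 and 0.22. For miR-338-5p they were miR-1839-5p, let-7g-5p and miR-100-5p, at 0.086, 0.10 and 0.15. miR-219a-2-3p and miR-338-5p were at 0.27 from each other, against median distances over all miRNAs of 0.83 and 0.65. For miR-338-3p the nearest were miR-136-3p, miR-340-5p and miR-490-5p, at 0.13, 0.17 and 0.18, while its own partner miR-338-5p was at 0.74. miR-219a-1-3p was nearest to miR-300-3p, miR-341 and miR-99b-3p, at 0.16, 0.17 and 0.17, and was 0.62 from miR-219a-2-3p.

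Other miRNAs reported to act in the oligodendrocyte lineage did not move in one direction. Of 17 on this list 16 were tested, by edgeR at an adjusted p under 0.05. With TMM 3 were called higher, 6 lower and 7 neither, beside 27.2% higher and 28.1% lower among all tested miRNAs. With library totals 2 were called higher and 10 lower, beside 12.2% and 46.0% among all tested miRNAs. The median log2 fold change of the 16 was -0.44 with TMM and -1.06 with library totals, beside -0.21 and -0.80 for all miRNAs. miR-138-5p, which rises with miR-219 and miR-338 when precursors mature, fell from 8980, 6922 and 8420 reads to 2087, 2094 and 2052 reads, which was -1.65 in log2 with TMM (edgeR, adjusted p = 0.00045). With library totals it was at -2.28 in log2, and fell as well. miR-17-5p and miR-20a-5p, of the miR-17-92 group known for the expansion of precursors, were called lower and fell by 2.10 and 2.14 on the log2 scale with TMM. miR-19b-3p of the same group had 86, 56 and 70 reads against 10, 0 and 16, so its fitted value rests partly on a listed 0. It is counted among those called lower, but it passed the filter on low counts through the MCAO group, so no weight is placed on its call. miR-125a-3p, known to restrain the maturation of oligodendrocytes, rose with a log2 fold change of 2.19, and miR-184, reported to favour it, with 2.03. miR-7a-5p, which acts in precursors, rose with 0.93 by TMM and was at 0.29 by library totals, where it did not pass (adjusted p = 0.548 from edgeR). miR-23a-3p, whose excess has been tied to thicker myelin, was at -0.84 with TMM (adjusted p = 0.058 from edgeR) and fell by library totals, at -1.43 (adjusted p = 0.016 from edgeR).

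**Figure D5:**
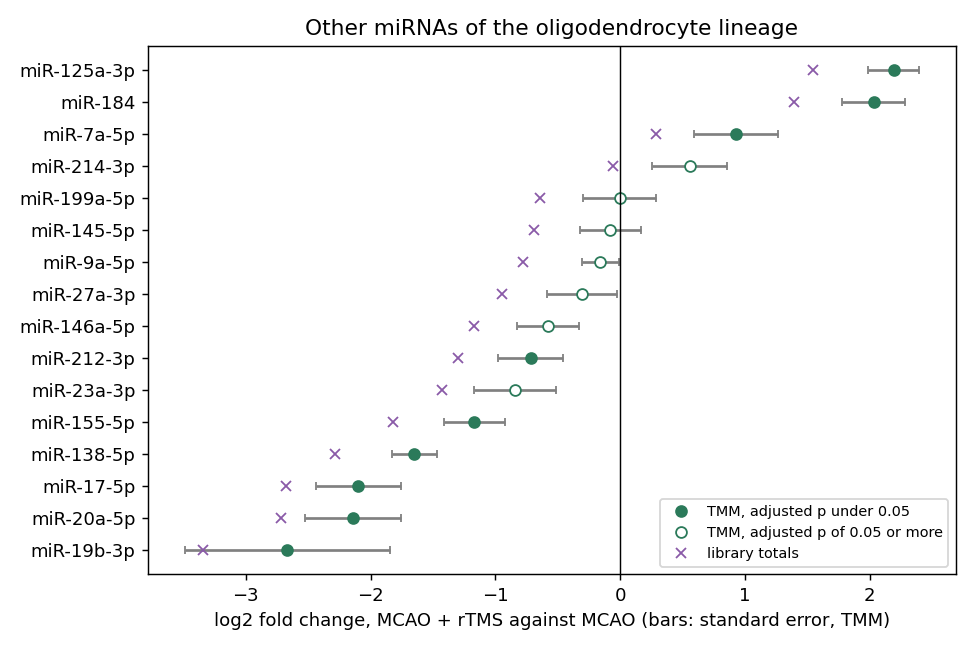
Log2 fold change with stimulation against without for the 16 tested miRNAs of the oligodendrocyte lineage list, ordered by value, with standard errors for TMM, filled points for an adjusted p under 0.05 in edgeR and crosses for library totals. Values run from -2.67 for miR-19b-3p, which has a listed 0 in 1 stimulated library, to 2.19 for miR-125a-3p, and every cross lies to the left of its point by about the shift of the median.

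In bulk tissue, fewer cells of a type and less RNA per cell cannot be told apart, and the markers of other cell types are therefore given, to be read against the shares of all tested miRNAs called higher and lower, 27.2% and 28.1% with TMM and 12.2% and 46.0% with library totals. Of 7 microglia and leukocyte miRNAs, 5 were called lower with TMM and 7 with library totals, with none higher. Their summed level, of which miR-21-5p was the largest part, was 3048 to 3996 CPM without stimulation and 2224 to 2782 CPM with it, by TMM. By itself miR-21-5p overlapped between the groups and was not called with TMM (adjusted p = 0.096 from edgeR). Of these 7, miR-146a-5p and miR-155-5p are also on the oligodendrocyte lineage list. Of 11 neuronal miRNAs, 4 were called higher and 2 lower with TMM, and 2 higher and 5 lower with library totals. Their sum, of which miR-128-3p was the largest part, was 225926 to 301272 CPM without stimulation, 379474 and 391153 CPM in the first and the next stimulated library, and 600104 CPM in the last of them, the library in which miR-219a-2-3p and miR-338-5p were low. Of 4 vessel wall miRNAs, 1 was called higher and 1 lower with TMM and 2 lower with library totals, and the TMM sums overlapped at 4931 to 9758 and 6344 to 9568 CPM. Of 2 red blood cell miRNAs tested, miR-486 rose and miR-451-5p fell, and the sums were 141 to 302 CPM and 513 to 637 CPM. In these lists 1 neuronal miRNA, miR-153-3p, was listed at 0 in 1 library. The part of these cell types in the changes of the members was not tested.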

How the data were processed

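Total RNA of peri-infarct cortex was made into small RNA libraries and sequenced on an Illumina HiSeq platform, with 1 library for each rat. The authors deposited raw read counts per mature miRNA. The submitters' processing notes name bcl2fastq, BWA, DESeq2 and the build rn6, without roles, and the miRNA annotation and the rule for reads with several matches are not given in the sources used here. A second deposited table, the authors' selection from the same counts, was not used. Groups and replicate numbers come from the sample titles. The methods give 3 rats a group, so p-values measure the spread between these rats.

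Counts were fitted in R 4.3.3 with edgeR 4.0.16 (filterByExpr, TMM factors, quasi-likelihood test, no block) on all 452 miRNAs that passed the filter, with Benjamini-Hochberg adjustment over them. The standard error is the log2 fold change divided by the square root of F. Arm ratios, log2 of counts plus 0.5, were fitted with limma 3.58.1 with a variance trend over 167 hairpins. Arms were paired by name. Ratios between hairpins were compared by two-sided exact permutation tests in scipy 1.17.1, adjusted over 5. Both fits were tested on simulated data. The methods name a two-sample comparison, which was replaced by a count model. Named miRNAs are the members, the listed markers and the 3 nearest in course to each member. Members and lists were chosen with earlier results of these data known, and miR-219a-1-3p was added since the rule takes it. Alternatives were library totals, RLE and upper-quartile factors, scaling without the 10 most abundant miRNAs, DESeq2 1.42.0, limma-voom, other filters, a replicate block and each library left out. Sequences are from RefSeq, where 451 of the 493 names matched. Without molecular identifiers, counts are not numbers of molecules. Counting precision is lowest for miR-219a-5p and miR-219a-1-3p, with under 100 reads a library.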

Additional observations from a re-analysis of the deposited data

How the results depend on the processing

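The scaling decided most calls of single members. For library totals and upper-quartile factors the log2 fold changes were 0.65 (no longer passing) and 0.92 for miR-219a-2-3p, 0.16 and 0.45 (neither passing) for miR-338-5p, 0.21 and 0.58 (neither passing) for miR-219a-1-3p, and -1.32 and -1.02 (both passing) for miR-338-3p. This goes with the shift of the median of all miRNAs, -0.80 and -0.50 with these scalings. miR-338-3p also passed among miRNAs with a mean count above 200 (-0.85), where fewer miRNAs were tested and the TMM factors were computed anew. The log2 fold changes of miR-219a-2-3p and miR-338-5p were lower in that fit too, at 1.09 and 0.62. With each library left out in turn the log2 fold changes with TMM ranged from 1.03 to 1.52 for miR-219a-2-3p, 0.63 to 0.96 for miR-338-5p, -0.95 to -0.44 for miR-338-3p (passing only without MCAO replicate 3) and 0.66 to 1.06 for miR-219a-1-3p. With library totals they ranged from 0.38 to 0.98, -0.0090 to 0.41, -1.50 to -1.07 and 0.098 to 0.32, and miR-338-5p reversed without MCAO + rTMS replicate 1 (-0.0090). Leaving out libraries under library totals, and all alternatives for miR-219a-1-3p, were chosen after seeing the data. Why single libraries mattered was not tested. RLE factors, DESeq2, limma-voom, no filter and scaling without the most abundant miRNAs changed no call of these 4. The number of miRNAs called, 250, was 180 with the replicate block and 179 to 253 with a library left out. Deviations of same-numbered libraries from their group means had correlations across miRNAs of 0.20, -0.12 and -0.11. The labels name no pairing, and these values cannot settle whether the rats were paired. With the replicate block miR-219a-1-3p did not pass (log2 fold change 0.84, adjusted p = 0.079 in edgeR), and the block changed no other call of a member. The arm ratio of miR-338 kept its direction and call in all alternatives run. With all 6 libraries miR-219a-5p and the arm ratio of miR-219a-2 had no value under the filter. miR-219a-5p was called lower, with either scaling, only when MCAO replicate 2, the MCAO library at 0, was left out. Every fit that held miR-219a-5p kept it through the MCAO group alone, so no weight is placed on this call or on the fits without a call. Depth limits miR-219a-5p most.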
